A study of Mus musculus with 6 samples.

Results

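The contactins and their partners at the node of Ranvier were examined in dorsal root ganglia (DRGs) of adult Meis1cko and control mice. The group holds 10 genes chosen by name, Cntn1, Cntn2, Cntnap1, Cntnap2, Nfasc, L1cam, Nrcam, Chl1, Ncam1 and Ank3, out of 18193 genes that the array measures with probe sets naming a single gene. A probe set is a group of short probes on the array that together measure a transcript. The 10 genes have 37 probe sets, each listed for that gene alone, among the 45037 tested, and values are those of a gene's brightest probe set (highest mean log2 intensity over all arrays) unless another is named.

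In Meis1cko mice a floxed exon of the homeobox transcription factor gene Meis1 is removed by Cre driven from the Nav1.8 promoter. This promoter is active in most nociceptors, so that other cells of the ganglion keep Meis1. At P60 the study detected Meis1 RNA in a few large neurons only, nearly all with a marker of myelinated neurons, and no longer in nociceptors. Total RNA came from cervical, thoracic and lumbar DRGs at P60 of 3 Meis1cko and 3 control mice, with 1 array in 1 colour per mouse. The labels call the second group control and the study speaks of control littermates, without giving their alleles for the arrays. The ganglia were measured whole, so that axons, cell bodies, Schwann cells, satellite glia and connective tissue all give RNA, and fewer cells of a type cannot be told apart from less RNA per cell.

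In myelinated axons, adhesion proteins of the immunoglobulin and Caspr families divide the membrane around the node. Neurofascin and NrCAM gather at the node and bind ankyrin-G, the scaffold encoded by Ank3, which holds the sodium channels there. Contactin-1 and Caspr (Cntnap1) on the axon bind a glial form of neurofascin (Nfasc) to form the paranodal junction beside the node. Contactin-2 and Caspr2 (Cntnap2) organise the juxtaparanode with its potassium channels. L1, CHL1 and NCAM are related adhesion proteins of growing and unmyelinated axons and of the Schwann cells that ensheathe them, and sensory neurons of the DRG are known to express many of these genes.

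The RefSeq windows around gene starts, 250 bases before to 50 after, were searched for TGACAG on both strands, the core sequence that MEIS proteins are known to bind. Of the 10 genes, 7 had 12 windows in the table, and 4 of these windows held the letters, in Cntn1, Cntn2 and Cntnap2. Of all 32851 windows, 19.2% held them. The matches before a start are shown in gene direction, in capitals, because Meis1 is the deleted factor and the study lists Cntn2 among its altered genes. They lie in GRCm38.p6 at chr1:132543010-132543069 on the minus strand for Cntn2, at chr15:92161246-92161305 on the plus strand for Cntn1 and at chr6:47244291-47244350 on the plus strand for Cntnap2, with the capitals ending 97, 79 and 73 bases before a start. Cntn1 and Cntnap2 have other listed starts, and 1 further Cntn1 match lies past a start.
Cntn2: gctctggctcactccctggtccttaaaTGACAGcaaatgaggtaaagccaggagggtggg
Cntn1: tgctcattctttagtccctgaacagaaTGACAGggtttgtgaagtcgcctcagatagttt
Cntnap2: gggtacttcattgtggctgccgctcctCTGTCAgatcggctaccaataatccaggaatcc
A match of these letters is a description and was not tested as a binding site. Chl1, L1cam, Nfasc and Nrcam had windows without them.

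The arrays had median intensities between 62.5 and 65.5. Meis1 itself had intensities of 110, 144 and 90.2 in control and 66, 72.1 and 64.2 in Meis1cko mice, a log2 fold change of -0.74 (SE 0.18, unadjusted p = 0.00434 in limma, adjusted p = 1). Whether its probes lie in the deleted exon was not analysed. The replicate 3 array of each genotype stood apart from the other arrays. There, the log2 excess of the 3′ over the 5′ probe set for Actb was 0.423 and 0.440, against 1.23 to 1.66 on the others. Of the sensory neuron markers, all 8 were measured, and their summed intensity was 64287 to 72166 in control and 63003 to 73097 in Meis1cko mice. By log2 fold change, 5 lay above 0 and 3 below. The lowest was Pou4f1 at -0.67 (SE 0.48, unadjusted p = 0.205 in limma), with 1056, 1184 and 729 in control and 911, 937 and 264 in Meis1cko mice. Of 7 markers of spinal cord glia, all measured, the summed intensity was 506 to 568 in control and 490 to 577 in Meis1cko mice. Among them Mog and Olig2 lay between 7.17 and 11.7 on every array, near the lowest value of any probe set (5.56), while Aqp4 had 127 to 297 and Mag, also a Schwann cell gene, 119 to 182.

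None of the 10 genes passed the limma test for a difference between genotypes on its brightest probe set. On their brightest probe sets, log2 fold changes (Meis1cko minus control) lay between -0.18 and 0.22, with a median of 0.02, where the brightest probe sets of all genes had a median of -0.01. In limma, 0 of the 10 passed the threshold of 0.05 once p was adjusted across the array, which 0.0155% of the 45037 probe sets passed, and 0 had an unadjusted p under 0.05, against 2.56% of all genes. With a fold change over 1.5 and an unadjusted p under 0.05, the thresholds of the methods, 0 of the 10 passed, against 0.781% of all genes. The 95% intervals of the differences show how large a change remains possible. For 9 of the 10 genes the interval of the brightest probe set lay within 1.5-fold in either direction, and for Ncam1 it reached 1.54-fold higher. These bounds hold for that probe set alone. Over all 37 probe sets the interval lay within 1.5-fold for 25. It was 1.33-fold to 2.11-fold for 1435166_at of Cntn2 and reached 1.63-fold for 1425202_a_at of Ank3. Among the 9 is Cntnap1, whose only probe set was so dim (22.0 to 27.5) that its interval may not bound a change.

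**Figure D1:**
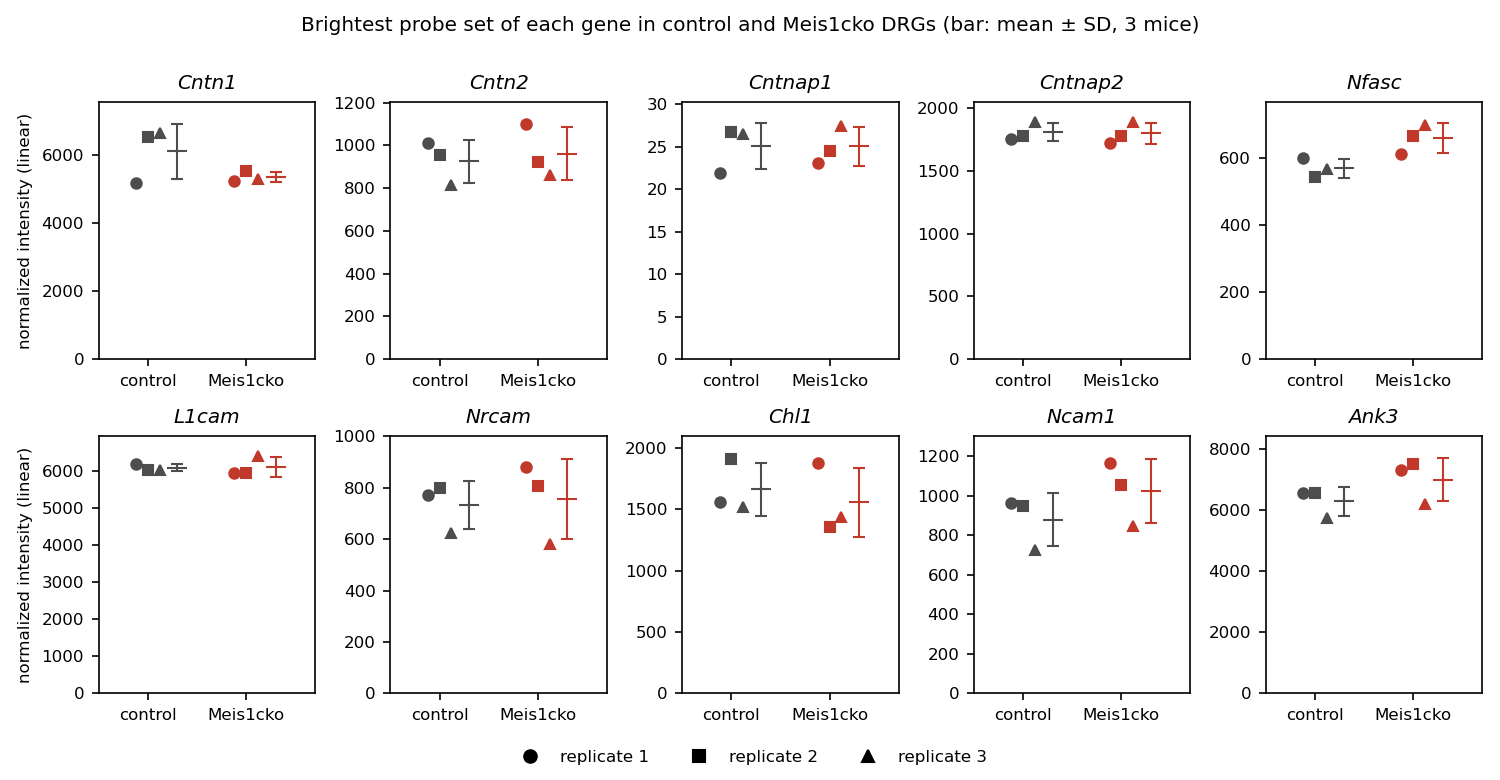
Normalized intensity (linear axis from 0) of the brightest probe set of each of the 10 genes for single control and Meis1cko mice, with the symbol giving the replicate number and the bar the mean ± SD of 3 mice. The genotypes overlap for 9 genes, and for Nfasc the Meis1cko mice (610 to 698) lie above the control mice (542 to 598).

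Among the genes of the node, Nfasc was the only gene of the 10 whose genotypes did not overlap on the brightest probe set, which was also so for 6.94% of all genes. Its intensities were 598, 542 and 567 in control and 610, 666 and 698 in Meis1cko mice. Every Meis1cko mouse lay above every control mouse. The means were 569 ± 28.4 (control) and 658 ± 44.4 (Meis1cko, SD, n = 3 mice), which gave a log2 fold change of 0.21 (SE 0.12, 95% interval -0.07 to 0.48, unadjusted p = 0.116 in limma). The exact two-sided permutation p was 0.1, the smallest that 3 mice against 3 allow. The next probe set of Nfasc had a log2 fold change of 0.24 with overlapping genotypes, and the dimmest had 0.08. The axonal and glial forms of neurofascin cannot be separated here, because the places of the probes in the transcripts were not analysed.

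Ank3, the ankyrin-G gene, had intensities of 6563, 6558 and 5731 in control and 7297, 7510 and 6192 in Meis1cko mice. The Meis1cko mouse was higher in each pair of the same replicate number, while the lowest Meis1cko mouse lay below the highest control mice. The means were 6284 ± 479 and 6999 ± 708 (SD, n = 3 mice), with a log2 fold change of 0.15 (SE 0.13, unadjusted p = 0.280 in limma). It ran from 0.09 without control replicate 3 to 0.24 without Meis1cko replicate 3. The next 3 probe sets of Ank3 by brightness had log2 fold changes of 0.21, 0.21 and 0.22 and were also higher in the Meis1cko mouse of every pair. These probe sets measure the same RNA of the same mice and are not independent. Both dim probe sets of Ank3 had -0.40 and 0.18, with control means of 32.0 and 18.1. With the replicates paired, the unadjusted p in limma was 0.0613 to 0.169 for the 4 brighter probe sets and 0.0289 for the dim one at -0.40, and all adjusted p-values were 0.653 or higher.

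Nrcam, which encodes the other ankyrin-binding adhesion protein of the node, had intensities of 773, 797 and 625 in control and 879, 806 and 580 in Meis1cko mice. Within each genotype, replicate 3 was the lowest, and the genotypes overlapped, with 0.03 as the log2 fold change (SE 0.19). The second Nrcam probe set had the other sign, with 568, 504 and 497 in control and 495, 454 and 469 in Meis1cko mice, a log2 fold change of -0.14 (SE 0.12, unadjusted p = 0.253 in limma). There the genotypes did not overlap.

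At the paranode, Cntn1 had intensities of 5181, 6525 and 6643 in control and 5244, 5523 and 5289 in Meis1cko mice, and control replicate 1 lay below all Meis1cko mice. The log2 fold change was -0.18 (SE 0.14, 95% interval -0.50 to 0.13, unadjusted p = 0.216 in limma), the lowest of the 10 genes. Without control replicate 1 it was -0.30 (unadjusted p = 0.0547 in limma). The second Cntn1 probe set had -0.18 (SE 0.24) and the dimmest 0.08. Cntnap1, the Caspr gene, was measured by a single probe set with intensities between 22.0 and 27.5 over the 6 mice, at a mean percentile of 28.2 among all probe sets. Its log2 fold change was 0.00 (SE 0.14). At so low an intensity a change in Cntnap1 may not be detectable.

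At the juxtaparanode, the means for Cntnap2 were 1807 ± 72.7 (control) and 1798 ± 83.6 (Meis1cko, SD, n = 3 mice), and the log2 fold change was -0.01 (SE 0.11). Its 95% interval, -0.27 to 0.25, was among the narrowest of the 10 genes. The second probe set of Cntnap2 had 0.03 (SE 0.13). On the third probe set, the mice had 42.9, 56.4 and 114 in control and 50.6, 55.9 and 144 in Meis1cko DRGs, and the replicate 3 mice were the highest of both genotypes.

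Cntn2, which encodes contactin-2, gave different values on different probe sets. On the brightest, the intensities were 1010, 953 and 815 in control and 1101, 921 and 861 in Meis1cko mice. The genotypes overlapped, with a log2 fold change of 0.05 (SE 0.15, unadjusted p = 0.738 in limma). On the probe set next in brightness, 1435166_at, they were 182, 191 and 242 in control and 346, 334 and 342 in Meis1cko mice. All Meis1cko mice lay above all control mice there. The means were 205 ± 32.5 (control) and 341 ± 6.26 (Meis1cko, SD, n = 3 mice), or 0.74 on the log2 scale (SE 0.14, 95% interval 0.41 to 1.07). In limma the p was 9.92e-04 before adjustment and 0.798 after it. It thus passed the thresholds of the methods and not the adjusted threshold. Since the study lists Cntn2 as altered on these same arrays, this call is not independent evidence of its direction.

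**Figure D2:**
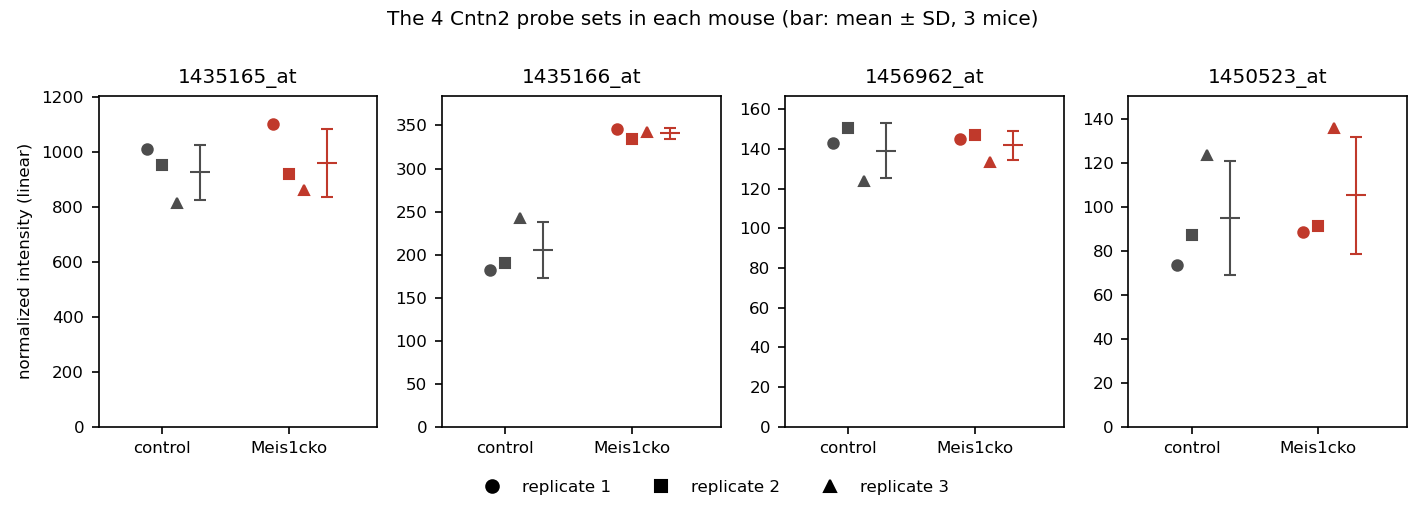
Normalized intensity (linear axes from 0, which differ between panels) of the 4 probe sets of Cntn2 in each control and Meis1cko mouse, in order of brightness, with bars for the mean ± SD of 3 mice. On 1435166_at the Meis1cko mice lie at 334 to 346 and the control mice at 182 to 242, and on each of the other probe sets the genotypes overlap.

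For the dimmer Cntn2 probe sets the log2 fold changes were 0.03 (SE 0.13) and 0.15 (SE 0.24), so that 1 of 4 probe sets carried the difference. The array annotation gives the same transcript sequence for 1435166_at and the brightest probe set. The log2 ratio of these probe sets within an array was -2.47, -2.32 and -1.75 in control and -1.67, -1.46 and -1.33 in Meis1cko mice. The ratio was higher in every Meis1cko mouse, by 0.69 on average, with an exact two-sided permutation p of 0.1, the smallest possible. The probe set was chosen for this ratio after its values had been seen. The places of these probes in the transcript were not analysed. With the replicates paired, the adjusted p of 1435166_at was 0.137 in limma, and without both replicate 3 arrays the log2 fold change was 0.87.

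Among the related adhesion genes of the axon and Schwann cell, L1cam had intensities of 6199, 6037 and 6039 in control and 5952, 5957 and 6413 in Meis1cko mice. The log2 fold change was 0.00 (SE 0.11), with a 95% interval from -0.25 to 0.26, and the means of both genotypes lay within the spread between mice. Chl1 had 1563, 1912 and 1519 in control and 1880, 1359 and 1437 in Meis1cko mice, which is -0.10 as log2 fold change (SE 0.17). The spread between mice of the same genotype was larger than the difference. All 4 probe sets of Chl1 had a log2 fold change below 0, between -0.14 and -0.02, each smaller than its SE.

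Ncam1 had the highest log2 fold change of the 10 genes. Its intensities were 961, 949 and 724 in control and 1164, 1052 and 846 in Meis1cko mice, with the Meis1cko mouse higher in every pair. The genotypes overlapped because Meis1cko replicate 3 lay below control replicates 1 and 2. The log2 fold change was 0.22 (SE 0.18, 95% interval -0.19 to 0.63, unadjusted p = 0.254 in limma). It was 0.35 without Meis1cko replicate 3, 0.12 without Meis1cko replicate 1, 0.08 without control replicate 3 and 0.02 as the mean of all Ncam1 probe sets. The second probe set, which the annotation ties to the same transcript sequence, had 1015, 901 and 845 in control and 999, 936 and 834 in Meis1cko mice and a log2 fold change of 0.00 (SE 0.13). On a dimmer probe set, 1450438_at, all Meis1cko mice (82.5 to 83.7) lay below all control mice (91.8 to 109), with -0.23 (SE 0.12, unadjusted p = 0.10 in limma). The 7 probe sets of Ncam1 thus ran from -0.23 to 0.22, and none passed the test.

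**Figure D3:**
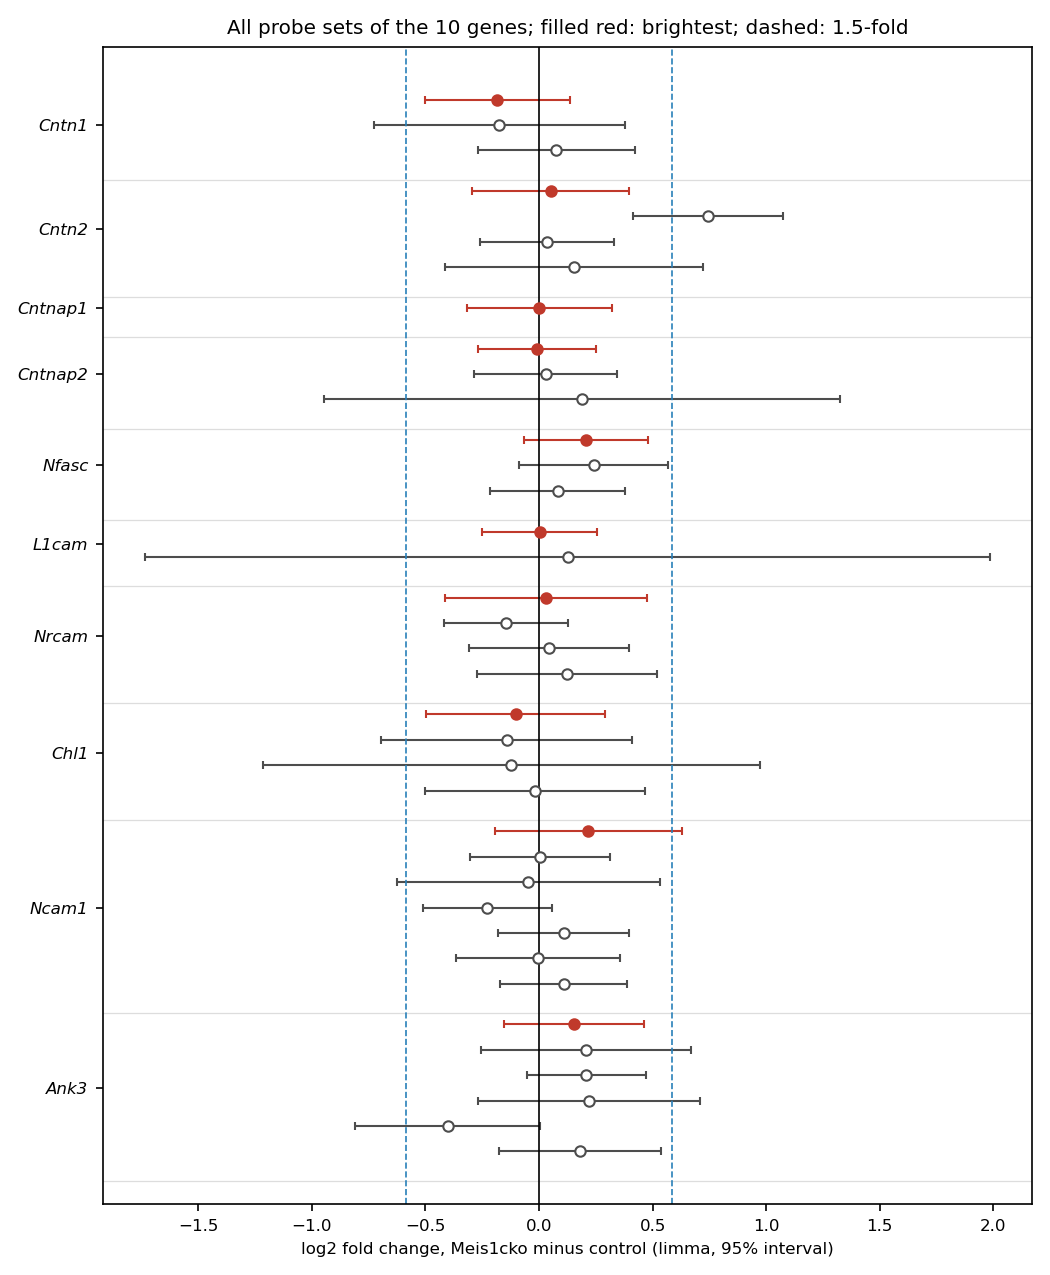
Log2 fold changes (Meis1cko minus control) with 95% intervals from limma for the 37 probe sets of the 10 genes, in order of brightness from the top within each gene, with filled red circles for the brightest and dashed lines at 1.5-fold in either direction. The interval of the second Cntn2 probe set (0.74) lies above 0, those of all other probe sets cross 0, and the widest belongs to the dim probe set of L1cam (-1.73 to 1.98).

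Over all 37 probe sets, the second one of Cntn2 was the only 1 under an unadjusted p of 0.05 in limma, against 2.32% of all probe sets. It was also the only one past the thresholds of the methods, against 0.675% of all. The genotypes did not overlap on 5 of the 37, against 6.64% of all probe sets, with 3 higher (Cntn2, Nfasc and Ank3) and 2 lower (Ncam1 and Nrcam) in Meis1cko mice. Of these 5, that of Nfasc is the brightest of its gene. By the same replicate number, 3 of the 10 genes (Nfasc, Ncam1 and Ank3) were higher in Meis1cko mice in all 3 pairs and 0 were lower, and 30.1% of all genes had the same direction in all pairs. Counted in either direction, the share of the 10 thus lay near that of all genes. Higher in all 3 pairs were 2346 of the 18193 genes.

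Several dimmer probe sets of these genes followed the replicate 3 arrays rather than the genotype. The dim L1cam probe set had 51.5, 33.5 and 200 in control and 69.7, 33.6 and 191 in Meis1cko mice. Its replicate 3 mice lay 2.27 (control) and 1.98 (Meis1cko) above the mean of the others on the log2 scale. The third probe set of Cntnap2 lay 1.21 and 1.44 higher there. The brightest probe sets of the same genes differed by -0.02 and 0.11 for L1cam and by 0.10 and 0.11 for Cntnap2, although the annotation ties each pair of probe sets to the same sequence. Ank3 showed both directions on probe sets tied to a shared sequence, with -0.43 and -0.52 for 1451628_a_at and 0.52 and 0.50 for 1425202_a_at. The 3′ to 5′ difference of Actb moved with these values, and its part in them was not tested.

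**Figure D4:**
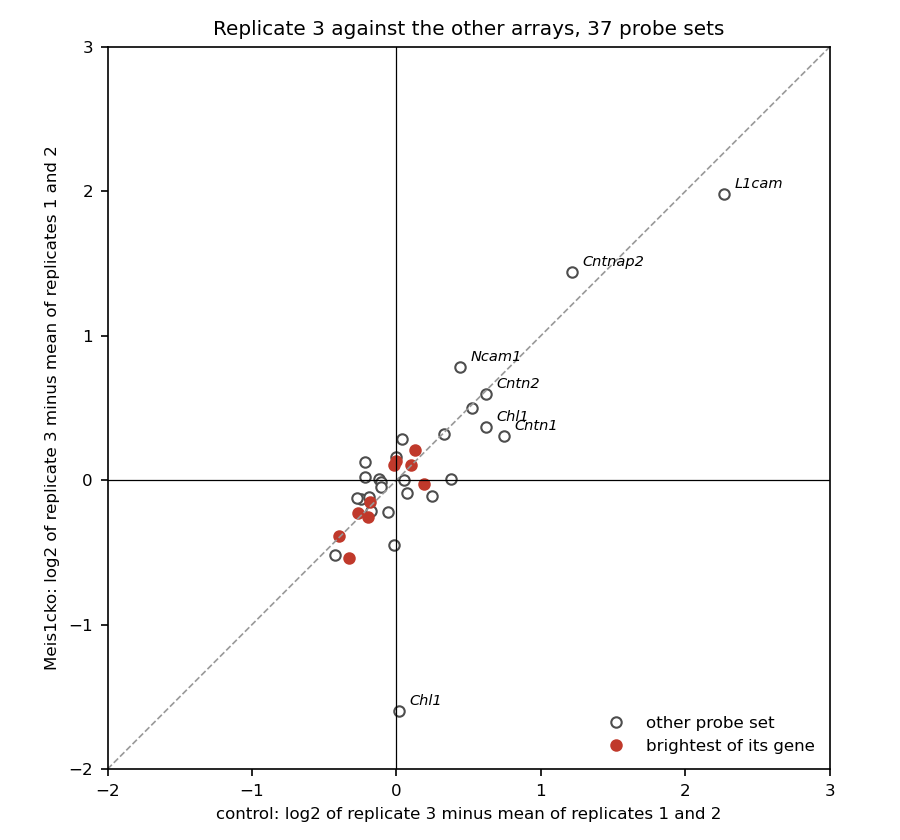
Log2 intensity of replicate 3 minus the mean of replicates 1 and 2 in control (horizontal) and Meis1cko mice (vertical) for the 37 probe sets, with filled red circles for the brightest of each gene and a dashed line where both are equal. The dim probe sets of L1cam and Cntnap2 lie far up along the line, the brightest probe sets lie between -0.54 and 0.21, and a dim Chl1 probe set is 1.60 lower in Meis1cko replicate 3 alone.

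Of the 37 probe sets, 27 deviated in the same direction in both replicate 3 mice (73.0%), against 71.6% of all probe sets, and 2 did so by more than 1 in both, against 2.24% of all. With both replicate 3 arrays left out, 5 of the 10 genes did not overlap between genotypes, 4 higher (Nfasc, Ncam1, Nrcam and Ank3) and 1 lower (L1cam) in Meis1cko mice. That was so for 33.5% of all genes, and 0 of the 10 passed the adjusted threshold of limma.

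Other genes of the node, paranode and juxtaparanode were taken from a list of 28, of which 25 were measured. None passed the adjusted threshold, and 1 had an unadjusted p under 0.05, where 2.56% of all genes did, with a median log2 fold change of 0.06. This gene was Lgi4, which encodes a secreted Schwann cell protein needed for myelination, with means of 371 ± 12.5 (control) and 467 ± 48.5 (Meis1cko, SD, n = 3 mice) and a log2 fold change of 0.33 (SE 0.12, unadjusted p = 0.0319 in limma). The potassium channel gene Kcna1 of the juxtaparanode had 0.19, the dystroglycan gene Dag1 -0.19 and the sodium channel subunit gene Scn2b 0.19. The genotypes did not overlap for 5 of the 25, 3 higher and 2 lower, against 6.94% of all genes. In all 3 pairs, 9 of the 25 were higher and 3 lower in Meis1cko mice, where 30.1% of all genes kept the same direction.

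Of 21 other adhesion genes of the immunoglobulin and Caspr families, 17 were measured. Of these, 0 had an unadjusted p under 0.05 in limma, with a median log2 fold change of -0.05. The members with the smallest p were the nectin-like adhesion gene Cadm3 at -0.24, Cntn6 at 0.37, Sdk1 at -0.18 and Alcam at -0.11. All 20 binding partners and modifying enzymes were measured, with a median of -0.10 and likewise 0 under 0.05. The sheddase gene Adam17 had -0.36, the matrix gene Tnc 0.41, Dcx -0.46 and Gap43 -0.21. By count, 14 of these 20 lay below 0, as did 9857 of the 18193 genes, and 9 were lower in Meis1cko mice in all 3 pairs (0 higher), against 17.2% of all genes. With the replicates paired, 3 of the 20 were under 0.05 in limma (Dcx, Adam17 and Tnc), as was Cntn6 of the relatives and Lgi4 of the partners, against 7.11% of all genes, and none passed the adjusted threshold.

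**Figure D5:**
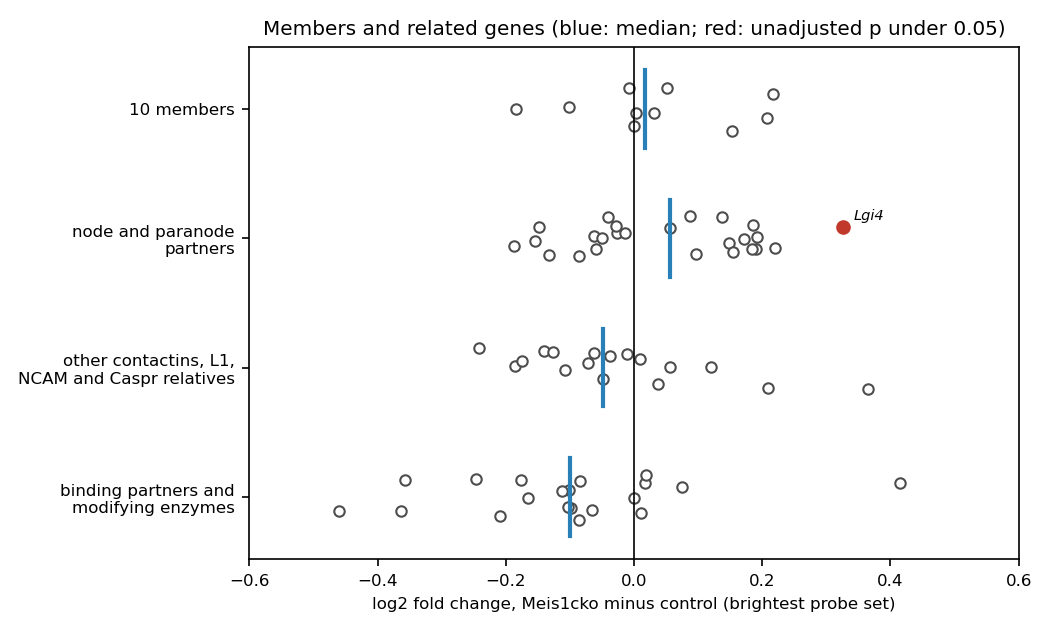
Log2 fold changes (Meis1cko minus control, brightest probe sets) of the 10 genes and of the measured genes of 3 related lists, each point a gene, with blue lines at the medians and red where the unadjusted p in limma is under 0.05. The medians are 0.02, 0.06, -0.05 and -0.10 from top to bottom, and Lgi4 (0.33) is the only red point.

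Among markers of other cells of the ganglion, the summed levels for fibroblasts and myelinating Schwann cells did not overlap between the genotypes, and those for satellite glia did. The summed intensity of 5 fibroblast markers was 9082 to 14352 in control and 6393 to 8355 in Meis1cko mice, with all 5 below 0 in log2 fold change. Control replicate 1 had the highest fibroblast sum, and the other control mice had 9269 and 9082. Its skeletal muscle marker sum was also the highest, 2788, against 800 and 229 in the other control and 371 to 874 in Meis1cko mice. Its sum of the 2 red blood cell markers measured, of 5 listed, was 391. The other control mice had 186 and 108, and the Meis1cko mice 132 to 173. Alas2 made up most of each sum, with 360 in control replicate 1, and Hba-a1 lay between 24.6 and 31.2 on every array. The summed intensity of 6 measured myelinating Schwann cell markers was 25378 to 27637 in control and 23820 to 25296 in Meis1cko mice, without overlap. Of these, 4 of the 6 lay below 0, Pmp2 lowest at -1.52. For 7 satellite glia and non-myelinating Schwann cell markers the ranges were 27222 to 30509 and 26072 to 28901. Within the list, Ednrb (-0.67, unadjusted p = 0.00136 in limma) and Kcnj10 (-0.36, unadjusted p = 0.0228 in limma) were lower without overlap. The genotypes overlapped for Apoe (-0.15), Fabp7 (-0.03), Sox10 (0.01), Scn7a (0.06) and Cdh19 (0.13). The study lists Ednrb as altered on these same arrays, so its value here is not independent evidence. Summed ranges overlapped for the 4 mural cell markers too, of which Acta2 was higher without overlap (0.76, unadjusted p = 0.00624 in limma). No marker passed the adjusted threshold of the unpaired fit, and with the replicates paired Pmp2 and the fibroblast marker Lum did. None of these measured markers was at 0, and their part in the values of the adhesion genes was not tested.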

How the data were processed

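The data are 6 Affymetrix mouse genome arrays of whole DRGs. The authors read the images with the GeneChip Command Console, analysed them in GeneSpring and deposited normalized intensity values on a linear scale; the method of summarising and normalizing is not given in the sources used here. The intensities were taken to log2 without an offset (0 values lay under the floor of 1). The 64 control probe sets were left out. The platform annotation supplied gene symbols: 34945 probe sets have 1, 932 have several and 9160 have none. The main comparison used limma 3.58.1 (lmFit, eBayes; R 4.3.3) with genotype alone and p-values adjusted by Benjamini-Hochberg across the 45037 tested, and 95% intervals from the moderated fit. The script was tested on simulated data. Named are the 10 genes with all their probe sets, Meis1, and up to 4 genes of each of 3 related lists with the smallest p. The genes and lists were chosen with earlier results of these data known.

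The labels number the mice of each genotype 1 to 3. Deviations from the group means correlated between same-numbered arrays at 0.424, 0.535 and 0.766, and between different numbers at -0.60 to 0.34. The numbers were taken to pair the arrays. For arrays other than replicate 3 these correlations do not settle such pairing. Deviations within a genotype cancel out, so a shift shared by the replicate 3 arrays alone raises correlations among the other arrays, whether or not their numbers match. Pairing of those arrays is an assumption, on which the paired fit and the directions within pairs rest. Whether same-numbered mice were littermates is not stated, and p-values measure the spread between these arrays. Alternatives were eBayes with a trend, the methods' own test, quantile normalization, centring on the 75th percentile, a filter at the 25th percentile, an offset of 16, the replicate block, each array or both replicate 3 arrays left out and, for each gene, the mean of its probe sets. Settings for the second Cntn2 probe set and the directions within pairs were added after seeing the data.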

Additional observations from a re-analysis of the deposited data

How the results depend on the processing

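In no alternative did any of the 10 genes pass the adjusted threshold or the thresholds of the methods. With the replicates paired, 37 probe sets passed the adjusted threshold in place of 7 and 0 of them belonged to the 10 genes. The count of probe sets was 11 with quantile normalization, 1 with an offset of 16, 0 in the methods' test and 26 without both replicate 3 arrays, and it ran from 1 to 15 with single arrays left out (15 without Meis1cko replicate 3, 1 without Meis1cko replicate 1 or control replicate 1). Nfasc had an unadjusted p under 0.05 in the methods' test and with an offset of 16, so that 1 of the 10 genes did. Genotypes did not overlap for 0 of the 10 with quantile normalization, for 5 without both replicate 3 arrays and for 1 to 5 with single arrays left out (5 without Meis1cko replicate 3, 2 without Meis1cko replicate 1 or control replicate 1; with fewer mice, overlap is rarer by construction).

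Cntn1 (-0.30 to -0.09), Nfasc (0.16 to 0.26), Ncam1 (0.02 to 0.35) and Ank3 (0.09 to 0.24) kept their sign in all 15 alternatives, which moved the values of Cntn1, Ncam1 and Ank3 by over 1.5 times. Values near 0 changed sign. Cntnap1 was -0.00220 with quantile normalization, -0.000446 with an offset of 16 and -0.027 without both replicate 3 arrays, and L1cam was -0.039 without both. Cntnap2 was 0.018 with quantile normalization, 0.010 centred on the 75th percentile and 0.070 as the mean of its probe sets. With single arrays left out, the log2 fold change ran from -0.051 to 0.13 for Cntn2, from -0.093 to 0.057 for Cntnap1, from -0.044 to 0.025 for Cntnap2, from -0.033 to 0.021 for L1cam, from -0.090 to 0.21 for Nrcam and from -0.24 to 0.0016 for Chl1. The cause was not tested. As the mean of its probe sets, Cntn2 had a log2 fold change of 0.25 (SE 0.11, unadjusted p = 0.0616 in limma). The second Cntn2 probe set stayed between 0.67 and 0.87, with an adjusted p of 0.137 or higher throughout. With 3 mice per genotype, changes under about 1.5-fold remain possible on the brightest probe set for most of the 10 genes.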
